A study of Mus musculus with 4 samples.

Results

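Far peaks are stretches of open chromatin that lie at least 50 kb from the body of every protein-coding gene of the mouse assembly GRCm38. Of 148283 deposited ATAC peaks, 16399 (11.1%) lay that far out, and 2689 of these held at least 100 counts over all cells and are described here. They made up 6.00% of the 44801 peaks with that many counts. Position and total count over all cells chose them. The nearest one lay 50007 bases from a gene, and the closest peak left out by distance lay 49992 bases away. At the count limit, 25 far peaks held exactly 100 counts and 21 held 99.

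The T cells were sorted from the bone marrow of C57BL/6 mice, all of them transplanted with C3H.SW marrow (5000000 cells) together with 500000 CD4 and 500000 CD8 T cells of that strain. One group had the transplant alone (alloBMT), and the other was also given 50 mg/kg cyclophosphamide, an alkylating agent toxic to proliferating cells, on days 3 and 4 (PT-Cy). On day 14 the sorted T cells of 4 mice were pooled per group and read for RNA and for open chromatin in the same nuclei (10x Multiome). Each group is therefore 1 library, no test was possible, no p-value is given, and every interval printed is an exact 95% interval that covers counting error alone and leaves out differences between mice. The sources used here give neither the age and sex of the mice, nor any conditioning, nor whether the sorted cells were of donor or host origin.

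ATAC-seq marks DNA that a transposase can reach, mostly promoters and enhancers. Enhancers can lie far from the gene they act on, with other genes in between, and large gene-free regions beside genes for transcription factors and signalling proteins often hold many of them. The nearest gene is given below as a landmark, not as a known target. Many far peaks also lie over long non-coding RNA genes (lncRNAs), which make no protein and whose start sites can themselves be open.

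The alloBMT library held 926 CD4 cells (6974362 counts in peaks) and 1865 CD8 cells (16605930 counts). The PT-Cy library held 284 CD4 cells (1538967 counts) and 512 CD8 cells (3117872 counts). The median cell had 6874 and 7841 counts in alloBMT CD4 and CD8 cells, and 4090.5 and 4615 in PT-Cy. The libraries shared 2 cell barcodes. Levels are given as CPM, counts scaled to a total of 1000000 over all peaks of a set and library, and ratios as log2. The deposited set labels matched accessibility at their own genes: peaks at Cd4 were at 93.5 and 72.8 CPM in the CD4 sets of alloBMT and PT-Cy and at 44.7 and 45.9 CPM in the CD8 sets, and peaks at Cd8a and Cd8b1 in CD4 cells stood at 21.3% and 32.5% of their level in CD8 cells. Peaks at myeloid genes (Spi1, Csf1r, S100a8, S100a9) were at 51.2 to 53.9 CPM in the 4 sets, those at erythroid genes (Gata1, Hbb-bs, Klf1) at 37.2 to 39.9 CPM and the peak at the natural killer gene Ncr1 at up to 2.47 CPM. The part of such cells in the results was not tested.

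Far peaks were thinner in counts than the rest. The median far peak held 216 counts against 290 for the other peaks with at least 100, at a similar width (947 against 974 bases). Of all peaks beyond 50 kb, 16.4% reached 100 counts, against 31.9% of nearer ones. The median far peak lay 98306 bases from a protein-coding gene, 438 lay beyond 200 kb, 42 beyond 500 kb, and the farthest 1410975 bases away. A non-coding gene overlapped 934 of them (34.7%), in 867 cases a lncRNA, while 1755 overlapped no annotated gene. Chromosome 10 held 265 and chromosome 2 held 237, and 21 lay over antigen receptor segments.

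Of the lncRNA starts listed by RefSeq (GRCm38.p6), 111 start windows of 96 genes lay wholly inside 93 far peaks. No genome sequence was at hand for the peaks themselves, so these windows, 250 bases before to 50 bases after a start, are the part of the far peaks whose sequence could be read. Far peaks with such a window held a median of 385 counts, against 212 for those without. A few windows are shown 5′ to 3′ on the strand of the gene, chosen because their peaks recur below or differ in ratio; capitals mark matches to the short words listed after them.
Gm33624, chr10:119001146-119001445, minus strand, in a peak between Dyrk2 and Cand1 with a PT-Cy to alloBMT log2 ratio of 1.63 (1.03 to 2.21): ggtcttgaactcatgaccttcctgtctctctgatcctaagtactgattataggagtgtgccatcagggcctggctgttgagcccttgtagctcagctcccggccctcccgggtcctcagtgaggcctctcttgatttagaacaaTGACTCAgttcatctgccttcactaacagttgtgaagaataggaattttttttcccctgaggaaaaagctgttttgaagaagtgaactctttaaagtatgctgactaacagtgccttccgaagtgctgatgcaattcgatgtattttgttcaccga
Gm13982, chr2:117417648-117417947, minus strand, in a peak 74219 bases from Rasgrp1 with a ratio of 0.81 (0.52 to 1.10): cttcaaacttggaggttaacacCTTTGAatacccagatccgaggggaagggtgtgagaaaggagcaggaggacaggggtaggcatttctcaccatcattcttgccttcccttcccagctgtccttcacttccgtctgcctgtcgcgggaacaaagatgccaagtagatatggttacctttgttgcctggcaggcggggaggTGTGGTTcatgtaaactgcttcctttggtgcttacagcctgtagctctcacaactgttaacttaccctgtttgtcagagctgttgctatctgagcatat
Gm42327, chr4:135051318-135051617, minus strand, in a peak 68829 bases from Runx3 with a ratio of -1.06 (-2.00 to -0.24): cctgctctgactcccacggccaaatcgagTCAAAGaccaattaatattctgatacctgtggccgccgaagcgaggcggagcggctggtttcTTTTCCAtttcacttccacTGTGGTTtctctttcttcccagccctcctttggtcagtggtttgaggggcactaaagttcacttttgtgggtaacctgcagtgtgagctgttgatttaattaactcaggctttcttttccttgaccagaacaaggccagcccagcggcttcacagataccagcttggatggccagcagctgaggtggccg
Gm41386, chr15:93712706-93713005, minus strand, in a peak near Prickle1 that was higher in CD4 than CD8 cells: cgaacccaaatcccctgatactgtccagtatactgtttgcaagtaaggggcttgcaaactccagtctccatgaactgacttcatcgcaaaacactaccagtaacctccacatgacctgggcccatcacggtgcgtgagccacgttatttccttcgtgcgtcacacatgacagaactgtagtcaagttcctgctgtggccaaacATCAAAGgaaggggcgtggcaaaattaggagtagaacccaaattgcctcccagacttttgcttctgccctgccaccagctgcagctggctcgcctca
Dleu2, chr14:61682324-61682623, minus strand, in a peak with 2814 counts, the most among far peaks with a start window: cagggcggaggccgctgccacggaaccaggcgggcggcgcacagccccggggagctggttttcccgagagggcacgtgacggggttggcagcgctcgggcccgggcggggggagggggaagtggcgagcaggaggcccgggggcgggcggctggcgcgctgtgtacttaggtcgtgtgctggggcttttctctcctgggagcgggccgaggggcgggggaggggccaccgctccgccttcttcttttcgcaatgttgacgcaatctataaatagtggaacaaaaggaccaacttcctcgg

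The words searched on both strands were TGACTCA or TGAGTCA (AP-1), TTTGAT or CTTTGA (TCF/LEF), TGTGGTT (RUNX), ACCGGAAGT or CAGGAAGT (ETS), TGGAAAA (NFAT), AAAGGTCA (NR4A), AGGTGTGA (T-box), TGTTTAC (FOX) and a pair of longer words for CTCF. The window of Gm33624 held an AP-1 word, that of Gm13982 a TCF/LEF and a RUNX word, that of Gm42327 a TCF/LEF, a RUNX and an NFAT word, and that of Gm41386 both TCF/LEF words, which overlap there. The Dleu2 window, with 69% G and C, held none of the words. With 1 window taken per peak, the RUNX word stood in 15 of 93 windows (16.1%), against 52 of 602 lncRNA start windows in nearer peaks (8.64%) and 5.27% of all 32817 RefSeq windows. Nearer peaks that also held the start window of a protein-coding gene were left out of these 602. RUNX factors are transcription factors of T cells, and Runx3 is known for its part in CD8 cells. The AP-1 word stood in 10.8% of the far windows, 7.31% of the lncRNA windows in nearer peaks and 5.20% of all windows. The TCF/LEF word stood in 21.5%, 19.9% and 22.9%. A match says only that these letters are present.

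Far peaks held between 3.35% and 3.58% of all counts in the 4 sets. The share was 3.58% (3.57 to 3.59) in alloBMT CD4 cells, 3.53% (3.53 to 3.54) in alloBMT CD8 cells, 3.35% (3.33 to 3.38) in PT-Cy CD4 cells and 3.58% (3.56 to 3.60) in PT-Cy CD8 cells. PT-Cy CD4 cells were the lowest, and the other 3 sets lay between 3.53% and 3.58%. A single peak carried part of this. The peak at chr17:39842999-39848781, over Rn18s-rs5, a copy of the 18S ribosomal RNA gene, and the lncRNA AY036118, held 77815 counts, up to 164 in a cell. It took 0.318% of alloBMT CD4, 0.272% of alloBMT CD8, 0.192% of PT-Cy CD4 and 0.239% of PT-Cy CD8 counts. Ribosomal RNA genes stand in many near-identical copies, so reads of this peak may come from elsewhere in the genome. Without it the shares were 3.27%, 3.27%, 3.17% and 3.35%, so PT-Cy CD4 cells were still the lowest and PT-Cy CD8 cells became the highest. Among deposited clusters with at least 30 cells in a library, the share ran from 3.30% (PT-Cy CD8 cluster 6) to 3.70% (PT-Cy CD8 cluster 2).

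Other peaks with many counts were close to level. The peak at chr6:31216089-31218713, over the lncRNA Lncpint, was at 141 CPM in alloBMT CD4, 127 in PT-Cy CD4, 128 in alloBMT CD8 and 128 in PT-Cy CD8 cells. The peaks 50.8 kb from Pkdcc, over Dleu2 (host of the miRNAs miR-15a and miR-16-1), 102.9 kb from Zfat, 75.9 kb from Chd2 (a chromatin remodeller) and 223.1 kb from Pcmtd1 had ratios between -0.20 and 0.13. An exception was the 563-base peak at chr11:109011524-109012087, 60.7 kb from Axin2, an inhibitor and target of Wnt signalling, with 4424 counts. It was at 188 CPM in alloBMT CD4, 111 in PT-Cy CD4, 153 in alloBMT CD8 and 127 in PT-Cy CD8 cells, a ratio of -0.76 (-0.99 to -0.53) in CD4 and -0.28 (-0.43 to -0.12) in CD8 cells. This peak gave up to 13 counts in a cell. With each cell counted once, its ratio was -0.25 in CD4 and 0.06 in CD8 cells, and the peak over Rn18s-rs5 turned from -0.35 to 0.37 over all T cells. Counting a cell once caps peaks with many counts per cell. The median counts per cell also differed between the libraries, and a capped ratio takes in that difference. These shifts therefore cannot decide whether the levels differed.

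Between PT-Cy and alloBMT, 96 far peaks (3.57%) were 2-fold or more higher in PT-Cy and 140 (5.21%) were 2-fold or more lower, over all T cells. Among all 44801 peaks the same calls took 1.59% and 3.69%. Far peaks had fewer counts than the others, and the shares fell with the count in both: at 100 to 199 counts 6.60% of far and 3.33% of other peaks were higher, and 7.99% and 6.59% were lower. At 400 counts or more 0.439% and 0.0644% were higher and 1.90% and 0.878% were lower. The median ratio of far peaks was -0.005. In the CD4 set 848 far peaks held 100 counts. Of these 10 were higher (1.18%, all peaks 0.751%) and 64 lower (7.55%, all peaks 3.82%). In the CD8 set 1976 could be compared, with 46 higher (2.33%, all peaks 1.01%) and 97 lower (4.91%, all peaks 3.27%). With edgeR TMM factors in place of the total count, which shift CD4 ratios by -0.20 and CD8 ratios by -0.09, the counts were 3 higher and 100 lower in CD4 and 29 higher and 123 lower in CD8 cells. The alloBMT library holds most counts, so a minimum over both libraries lets more peaks through that are open in alloBMT.

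The 10 far peaks with the highest lower bound of the ratio were the clearest higher ones in PT-Cy, and 4 are given in full. The first, chr3:115800424-115801886, lay 85.4 kb from S1pr1, the sphingosine phosphate receptor that lets T cells leave tissues. It was at 4.59 CPM in alloBMT CD4 and 24.0 in PT-Cy CD4 cells, and at 3.07 and 13.2 CPM in CD8 cells. Both PT-Cy sets stood above both alloBMT sets. The ratio was 2.39 (1.67 to 3.12) in CD4 and 2.10 (1.47 to 2.72) in CD8 cells. A peak 198.5 kb from Cxcr4, the chemokine receptor that holds cells in the marrow, was at 2.58 and 9.10 CPM in CD4 and 2.47 and 9.62 CPM in CD8 cells. The peak at chr3:52643542-52644199, 293.4 kb from Foxo1, a transcription factor of resting and memory T cells, was at 5.45 and 14.3 CPM in CD4 and 3.37 and 12.2 CPM in CD8 cells. A peak 75.2 kb from Fasl, the death ligand of cytotoxic cells, was at 2.58 and 14.9 CPM in CD4 and 3.19 and 9.30 CPM in CD8 cells. In each of these the PT-Cy level lay above the alloBMT level in both sets. The remaining 6 lay near Eef2kmt, Pdzd8, Gm38457, Rpap3, Mkln1 and Prex1, with ratios from 1.53 to 2.07 over all T cells. RNA of the nearest genes in CD4 cells lay on both sides of 0. S1pr1 had a ratio of 1.98, Foxo1 0.80 and Cxcr4 0.59 (-0.07 to 1.24), but Fasl had -1.32 (-1.63 to -1.01). Prex1 had -0.74, Eef2kmt -0.37, Rpap3 -0.29, Mkln1 -0.05 and Pdzd8 0.04.

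The clearest lower peaks had few counts in PT-Cy, so their ratios are wide. The peak 98.4 kb from 1700056E22Rik was at 6.60 and 0.65 CPM in CD4 and 7.23 and 0.64 CPM in CD8 cells, a ratio of -3.45 (-5.74 to -1.88) over all T cells. The peak at chr16:51757980-51758799, 272.4 kb from Cblb, a ubiquitin ligase that restrains T cell activation, was at 6.17 and 0.65 CPM in CD4 and 4.09 and 0.32 CPM in CD8 cells. The peak with the most counts of these 10 was chr12:25211187-25211828, 115.1 kb from Id2, a regulator of effector T cells, with 525 counts. It was at 19.8 and 5.20 CPM in CD4 and 21.4 and 7.38 CPM in CD8 cells, a ratio of -1.65 (-2.23 to -1.13). For the Id2 peak both PT-Cy sets stood below both alloBMT sets. The peak 59.2 kb from the chemokine gene Ccl1 had a ratio of -2.97 (-5.27 to -1.39). A peak between Nmbr and Cited2, 1008.5 kb from the nearer gene, differed between sets: 8.61 and 0.96 CPM in CD8 cells, against 3.87 and 3.25 CPM in CD4 cells, where the interval of the ratio reached from -1.99 to 1.14. The other 5 lay near Gm50595, Th, Igfbp7, Ube2cbp and Tex13c3, with ratios from -2.32 to -1.97.

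**Figure D1:**
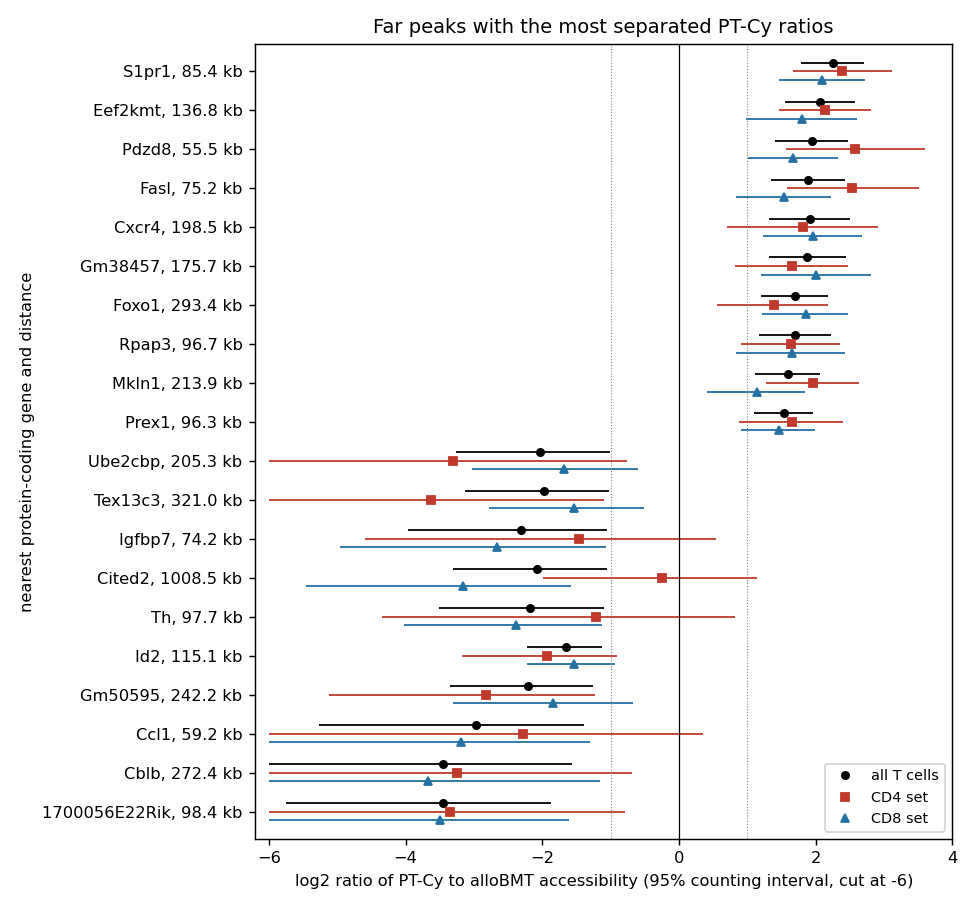
Log2 ratio of PT-Cy to alloBMT accessibility (x axis) of the 10 clearest higher and 10 clearest lower far peaks (ranked by the interval bound nearer to 0), named by nearest protein-coding gene and distance (y axis); points are ratios in all T cells, CD4 and CD8 cells, lines are 95% counting intervals and dotted lines mark 2-fold. The S1pr1 peak stands at 2.39 in CD4 and 2.10 in CD8 cells, and the Cited2 peak at -0.25 and -3.16.

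Far peaks nearest to genes of fixed T cell lists had median ratios between -0.26 and 0.40, and each list rested on a few genes. Their 2-fold calls stand beside 3.57% higher and 5.21% lower over all far peaks. The median of each list kept its side of 0 with TMM factors. Of 24 genes of stem-like and memory T cells, 10 were nearest to 78 far peaks, with a median ratio of 0.19, 8 peaks 2-fold higher and 1 lower. Ets1 (19 peaks), Foxo1 (17) and Bcl11b (10) supplied most of them. The 16 peaks of the regulatory T cell list, 13 of them nearest to Gata3, had a median of 0.40, with 1 higher and 2 lower. The 71 peaks of the effector and cytotoxic list, 45 of them nearest to Id2, had a median of -0.17, with 1 higher and 4 lower. The 38 peaks of the exhaustion list (Eomes 13, Prdm1 10, Tox 6 among them) had a median of -0.14, with 2 higher and 3 lower. The migration list (31 peaks) stood at -0.17, genes of other blood cells (16 peaks) at -0.26, the lineage list (53) at 0.09 and the growth list (79) at 0.08. All far peaks stood at -0.005.

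Summing far peaks between the same 2 neighbouring genes gives 723 gene-free intervals, of which 297 hold 1 far peak and 60 hold 10 or more, with 1008 peaks between them. Summed, 12 intervals were 2-fold higher in PT-Cy and 27 lower, and the counting interval lay above 0 in 136 and below 0 in 152. With TMM factors 12 were higher and 31 lower. Nearer peaks were not summed in this way, so these counts have no background share beside them. The interval from Id2 to Rnf144a held the most far peaks, 59, and its sum was at 870 CPM in both alloBMT sets, 753 in PT-Cy CD4 and 852 in PT-Cy CD8 cells. That is a ratio of -0.21 (-0.30 to -0.12) in CD4 and -0.03 (-0.09 to 0.03) in CD8 cells, and it held both the lower peak above and 22 peaks with a ratio above 0. The 48 peaks between Bcl2l11, which encodes the pro-death protein Bim, and Spdye4c were at 540 and 497 CPM in CD4 and 596 and 635 CPM in CD8 cells. The intervals from Klf14 to Mkln1 (39 peaks), Tle3 to Rplp1 (32), Myc to Gsdmc (31), Eea1 to Btg1 (25) and Haao to Zfp36l2 (25) had ratios between -0.08 and 0.11 over all T cells. By set, Haao to Zfp36l2 stood at -0.23 (-0.37 to -0.10) in CD4 and Tle3 to Rplp1 at 0.20 (0.12 to 0.27) in CD8 cells. Over all T cells the sums of Bcl2l11 to Spdye4c and of Klf14 to Mkln1 lay above 0 and fell to -0.05 and -0.03 with TMM factors. The sum of Myc to Gsdmc, at 0.01, also fell below 0 with them. Next in size, with 24 peaks each, were Olfr1324 to Stk26 on the X chromosome and Cd83 to Jarid2, both added after their values were seen. Olfr1324 to Stk26 was at 403 and 309 CPM in alloBMT and PT-Cy CD4 cells and at 347 and 285 CPM in CD8 cells. Of its peaks, 23 had a ratio below 0 over all T cells. Cd83 to Jarid2 was at 257 and 270 CPM in CD4 and 265 and 289 CPM in CD8 cells, with 14 peaks above 0 and 10 below.

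Among the 8 intervals with the most far peaks, the summed ratio over all T cells was farthest from 0 between Foxo1 and Cog6. Its 26 far peaks summed to 288 CPM in alloBMT CD4, 413 in PT-Cy CD4, 288 in alloBMT CD8 and 417 in PT-Cy CD8 cells. Both PT-Cy sets were higher, with ratios of 0.52 (0.39 to 0.65) and 0.54 (0.45 to 0.63). Of the 26 peaks, 23 had a ratio above 0 over all T cells (also 23 with TMM factors), and 5 were 2-fold higher. Foxo1 RNA in CD4 cells was also higher, with 568 UMIs in alloBMT and 412 in PT-Cy, a log2 ratio of 0.80 (0.61 to 0.98). RNA could be set beside accessibility in the CD4 set alone.

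Ranked by the lower bound of the summed ratio, which favours intervals with more counts, the first were the 4 far peaks between S1pr1 and Dph5, at 48.3 and 117 CPM in CD4 and 41.0 and 81.8 CPM in CD8 cells. All 4 had a ratio above 0 in both sets (3 of 4 in CD8 cells with TMM factors), and the sum had a ratio of 1.28 (1.01 to 1.54) in CD4 and 1.0 (0.78 to 1.21) in CD8 cells. S1pr1 RNA in CD4 cells had 56 UMIs in alloBMT and 92 in PT-Cy, a ratio of 1.98 (1.48 to 2.48), and Dph5 RNA one of 1.59 (0.87 to 2.32). The 8 peaks between Icos, a costimulatory receptor, and Pard3b were at 64.0 and 116 CPM in CD4 and 47.7 and 84.7 CPM in CD8 cells, and in CD4 cells Icos RNA had a ratio of 0.96 (0.79 to 1.14) and Pard3b RNA, with 54 UMIs in all, 2.03 (1.19 to 2.90). The intervals Adcy8 to Efr3a (2 peaks) and Npvf to Gm38821 (5 peaks) stood at 0.96 and 0.79. Those with the lowest upper bound were Tpbg to Ube2cbp (3 peaks, -1.89), Mphosph6 to Cdh13 (3, -1.20), Slc22a12 to Rps6ka4 (2, -0.99) and Snx16 to Ralyl (5, -0.98), and these 4 were lower in both sets.

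The following intervals beside T cell regulators were added after their values were seen. Between Celf2 and Gata3, 13 far peaks had a ratio of 0.32 (0.13 to 0.51) in CD4 and 0.44 (0.31 to 0.58) in CD8 cells. The 8 peaks between Wwox and Maf, a transcription factor of helper cells, had 0.48 (0.20 to 0.75) and 0.61 (0.38 to 0.82). Maf was the nearest gene of only 1 far peak in the whole set, so most of these 8 lay nearer to Wwox. Between Gm52008 and Bcl11b, a T cell identity factor, 15 peaks had 0.37 (0.18 to 0.56) and 0.17 (0.02 to 0.30). TMM factors shift such ratios by -0.20 in CD4 and -0.09 in CD8 cells. With them the CD4 intervals at Gata3 and Bcl11b and the CD8 interval at Bcl11b included 0. The lower CD4 bound at Maf then came close to 0. Lower in both sets were the 10 peaks between Syf2 and Runx3, at -0.33 in CD4 and -0.53 in CD8 cells. Runx3 was the nearest gene of 5 far peaks in the whole set. Also lower in both were the 20 peaks between Ccdc54 and Cblb (-0.72 and -0.17) and the 12 beside Rgs1 (-0.53 and -0.19). The 14 beside Prdm1 had -0.45 and -0.19. Of the 20 far peaks toward Cblb, 20 had a ratio below 0 in CD4 and 16 in CD8 cells. In CD4 RNA, Gata3 had a ratio of 0.90, Runx3 -0.90, Rgs1 -1.28, Prdm1 -0.87, Cblb -1.54 and Bcl11b -0.08. These genes were picked with their values known, and others went apart: Btg1 RNA had a ratio of -1.04 while the 4 far peaks from Btg1 to Gm46240 were at 64.1 and 91.6 CPM in CD4 cells, and Satb1 RNA had 2.08 while the 9 far peaks from Satb1 to Kcnh8 were at 133 and 129 CPM.

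**Figure D2:**
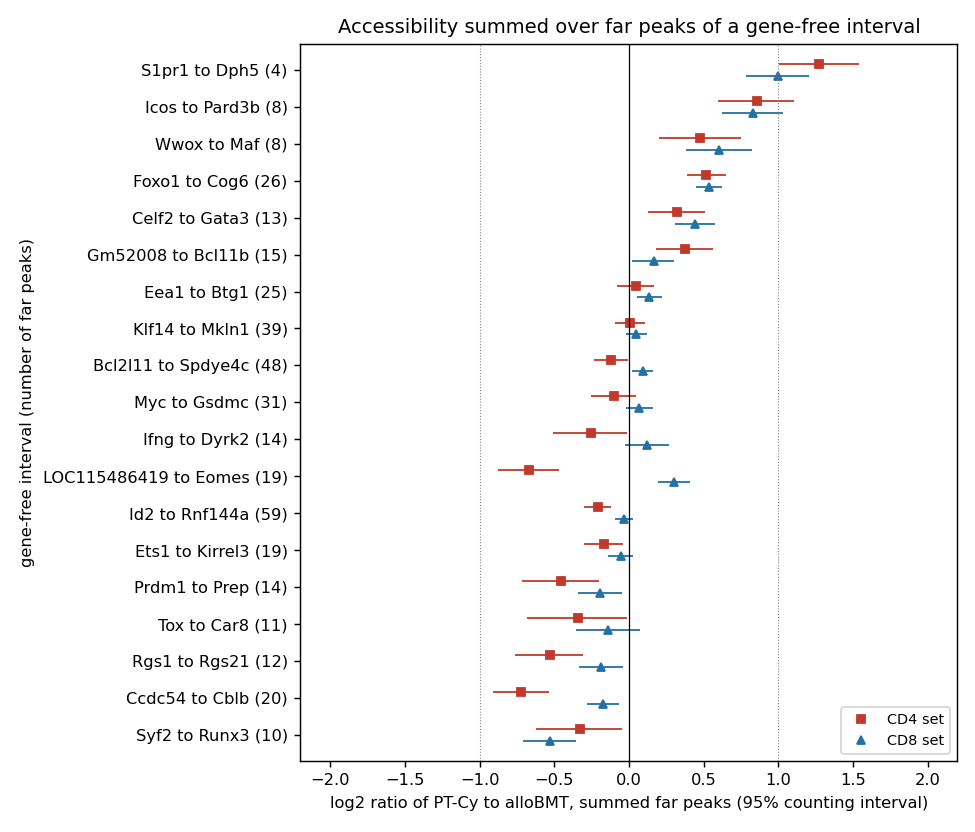
Log2 ratio of PT-Cy to alloBMT (x axis) of counts summed over the far peaks of 19 gene-free intervals named in the text or beside genes of the fixed lists, with the number of far peaks in brackets (y axis); squares are CD4 and triangles CD8 cells, lines are 95% counting intervals and dotted lines mark 2-fold. S1pr1 to Dph5 stands at 1.28 and 1.0, and the interval at Eomes lies on opposite sides of 0, at -0.67 and 0.30.

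The far peaks beside Eomes, a T-box transcription factor of effector, memory and exhausted T cells, differed in direction between the 2 sets. The 19 peaks between LOC115486419 and Eomes summed to 236 CPM in alloBMT CD4 and 148 in PT-Cy CD4 cells, and to 231 in alloBMT CD8 and 285 in PT-Cy CD8 cells. The sets were near level in alloBMT and apart in PT-Cy. The ratio was -0.67 (-0.88 to -0.47) in CD4 and 0.30 (0.20 to 0.41) in CD8 cells. In CD4 cells 17 of the 19 peaks had a ratio below 0, and in CD8 cells 16 had a ratio above 0 (17 and 13 with TMM factors). Eomes RNA in CD4 cells had 491 UMIs in alloBMT and 85 in PT-Cy, a ratio of -1.27 (-1.62 to -0.94). By cluster the sum was at 68.1 CPM in alloBMT CD4 cluster 4, 147 and 100 CPM in the PT-Cy CD4 clusters 2 and 4, and 215 to 268 CPM in the other 4 alloBMT CD4 clusters. In CD8 cells the highest cluster was PT-Cy cluster 2, at 354 CPM, and PT-Cy clusters 5 and 6 were at 250 and 182 CPM. In alloBMT the CD8 clusters 2, 5 and 6 were at 271, 170 and 219 CPM, and CD4 cluster 2 was at 245 CPM. CD8 cluster 6 was thus lower and CD4 cluster 4 higher in PT-Cy, each against the direction of its set. The 2 libraries place their cells in different clusters, and what that shift adds to the ratios was not tested.

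**Figure D3:**
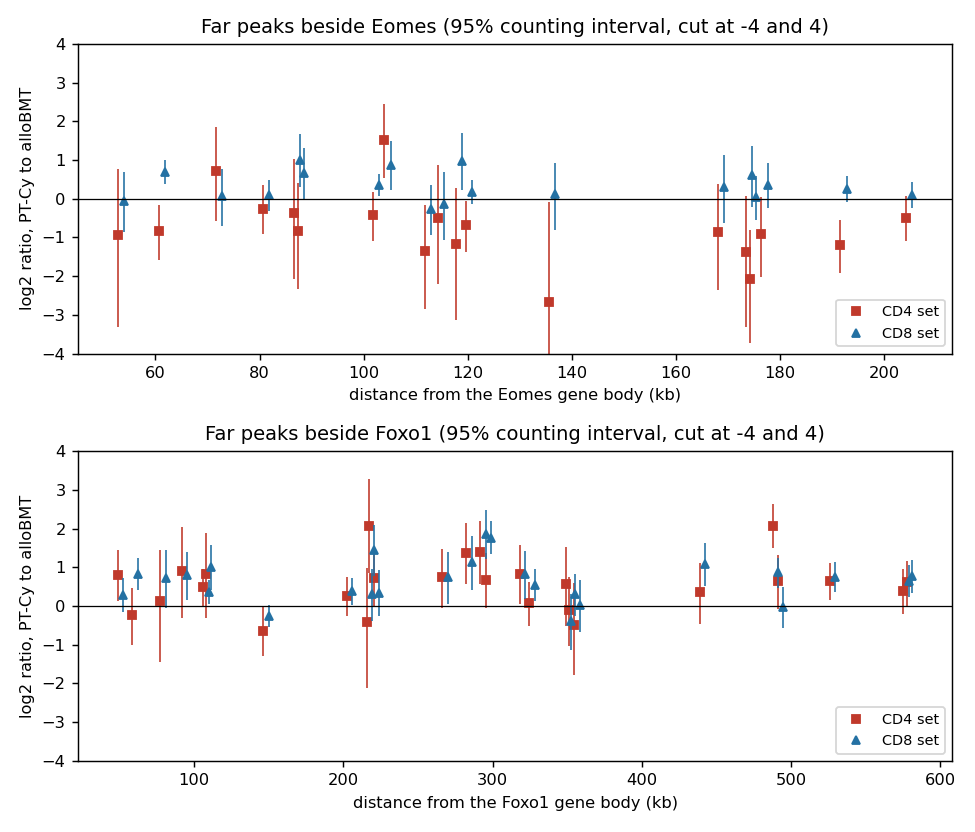
Log2 ratio of PT-Cy to alloBMT (y axis) of each far peak beside Eomes (top) and Foxo1 (bottom) against its distance from the gene body in kb (x axis); squares are CD4 and triangles CD8 cells, set slightly apart sideways, and lines are 95% counting intervals. Beside Eomes 17 of 19 CD4 points lie below 0 and 16 CD8 points above it, while beside Foxo1 most points of both sets lie above 0.

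CD4 and CD8 cells were compared within each library, where both sets share a pool of mice. In alloBMT 2284 far peaks had enough counts. Of these 26 were 2-fold higher in CD4 cells (1.14%, all peaks 0.66%) and 74 were 2-fold higher in CD8 cells (3.24%, all peaks 2.06%). In PT-Cy 391 had enough counts, with 1 higher in CD4 (0.256%, all peaks 0.121%) and 21 higher in CD8 cells (5.37%, all peaks 1.05%). The single CD4-higher peak was at chr12:54566197-54567690, 77.7 kb from Sptssa. Of the 26 CD4-higher peaks of alloBMT, 20 had at least 20 counts in PT-Cy, and 18 of these lay on the same side there. Of the 74 CD8-higher ones, 36 had 20 counts and 29 lay on the same side. Of all 2006 far peaks with 20 counts, 875 lay above 0.

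The CD4-higher peaks lay near Bcl2l11 and Spdye4c, Prickle1, Egln3 and Sptssa, Stmnd1, Zfp64 and Cebpb. The peak at chr2:128454412-128454902, between Bcl2l11 and Spdye4c, was at 11.3 CPM in CD4 and 2.35 in CD8 cells of alloBMT, and at 5.85 and 3.21 CPM in PT-Cy. A pair of peaks 116.0 and 154.4 kb from Prickle1, a planar polarity gene, had ratios of 1.72 (1.20 to 2.25) and 1.80 (1.24 to 2.38) in alloBMT. The former holds the Gm41386 start shown above. The Sptssa peak was at 11.8 and 3.73 CPM in alloBMT and 27.3 and 6.09 CPM in PT-Cy, and Egln3, the oxygen-sensing enzyme on the other side of that interval, has a second such peak 88.8 kb away. All 8 had a PT-Cy ratio above 0, from 0.48 to 2.16, but the intervals of the peaks near Spdye4c, Cebpb and Egln3 included 0.

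The CD8-higher peak with the most counts was chr14:106026425-106027986, 78.2 kb from Trim52 in the interval with Spry2, an inhibitor of growth factor signalling. It was at 8.46 CPM in CD4 and 31.1 in CD8 cells of alloBMT and at 7.15 and 24.0 CPM in PT-Cy, and the sets lay apart in both libraries, with ratios of -1.88 (-2.29 to -1.49) and -1.75 (-2.81 to -0.83). A peak 105.5 kb from Fasl was at 5.16 and 17.6 CPM in alloBMT and 5.85 and 14.1 CPM in PT-Cy. It lies beside the Fasl peak that was higher in PT-Cy and was itself nearly level between libraries. The peak 122.5 kb from Sp4 was at 2.15 and 10.1 CPM in alloBMT but 9.75 and 12.8 CPM in PT-Cy, where the interval of the ratio reached from -1.36 to 0.49. The other 5 lay near Mki67 (a protein of dividing cells), Acbd6, Chl1, Slc1a3 and Cyria, and their PT-Cy intervals all included 0. The Acbd6 peak lay on the other side in PT-Cy, at 0.83 (-0.87 to 2.48) with 7 and 8 counts, against -1.81 in alloBMT.

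**Figure D4:**
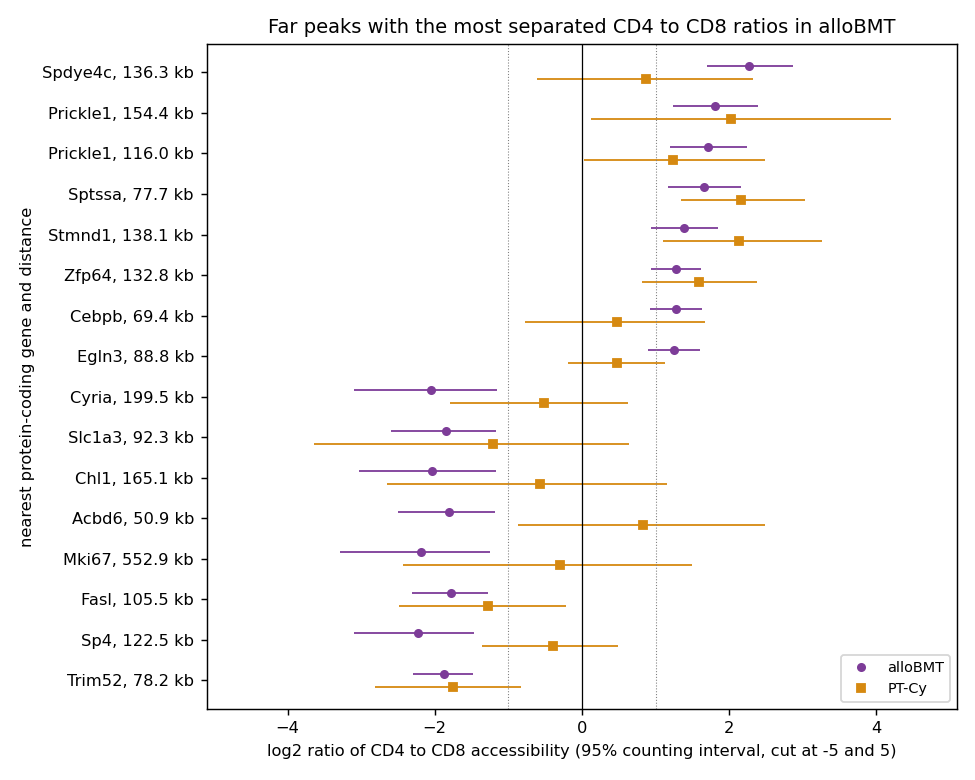
Log2 ratio of CD4 to CD8 accessibility (x axis) of the 8 far peaks highest in CD4 and the 8 highest in CD8 cells of alloBMT, named by nearest gene and distance (y axis); circles are alloBMT, squares PT-Cy, lines 95% counting intervals and dotted lines 2-fold. The Trim52 peak stands at -1.88 and -1.75, while the Sp4 peak stands at -2.23 and -0.40.

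Across 18 deposited clusters within a library, each with at least 30 cells, 291 far peaks (10.8%, all peaks 6.19%) separated the highest from the lowest cluster by an interval gap of 1 or more, that is, the lower bound of the highest cluster was at least 2-fold above the upper bound of the lowest. By depth these were 12.1% of far and 7.55% of other peaks at 100 to 199 counts, and 8.33% and 3.28% at 400 or more. The clusters were made from these cells, so the gaps are a description. By these bounds the highest cluster was most often alloBMT CD8 cluster 3 (60 peaks), alloBMT CD4 cluster 4 (33) and PT-Cy CD4 cluster 2 (29), and the lowest was most often alloBMT CD4 cluster 0 (58) and alloBMT CD8 cluster 0 (46).

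The widest gaps often fell to small clusters. Cluster 4 of alloBMT CD4 cells, with 34 cells, had the highest lower bound at 5 of the 12 widest. These were the peaks 130.6 kb from Map1b (37.1 CPM, against 0 counts in alloBMT CD8 cluster 7, whose interval reaches 2.31 CPM), 89.2 kb from Dyrk2 in the interval with Ifng (34.0 CPM), 116.8 kb from Stk31 (40.2 CPM), 96.7 kb from Rpap3 (30.9 CPM) and 60.3 kb from Rgs13 (37.1 CPM), a regulator of G protein signalling. PT-Cy CD4 cluster 4, with 31 cells, stood at 26.7, 26.7 and 33.4 CPM at the peaks near Dyrk2, Stk31 and Rpap3. CD4 cluster 4 was thus high in both libraries at these 3 peaks. PT-Cy CD4 cluster 4 was highest at the peaks 168.0 kb from Ext1 (53.4 CPM) and 68.2 kb from H2az1 (66.7 CPM), the gene of a histone variant. At the Map1b and H2az1 peaks alloBMT CD8 cluster 5, with 30 cells, was also high, at 26.4 CPM each. The counts behind these small clusters are few, and each level carries a wide interval.

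At other peaks the highest lower bound fell to larger clusters. AlloBMT CD8 cluster 3, with 297 cells, was at 41.6 CPM at the peak 105.8 kb from Ctnnb1, the gene of beta-catenin, where alloBMT CD8 clusters 1 and 0 were at 39.3 and 31.7 CPM and alloBMT CD4 cluster 0 at 3.31 CPM. CD8 cluster 3 was at 21.6 CPM at the peak 75.4 kb from Dap, against 0.37 CPM in the same CD4 cluster. PT-Cy CD8 cluster 2, with 170 cells, was at 40.6 CPM at the peak 214.3 kb from Pard3b in the Icos interval, where PT-Cy CD8 cluster 5 was at 30.4, alloBMT CD8 cluster 7 at 33.9 and alloBMT CD8 cluster 0 at 3.52 CPM. The Icos interval peak was thus open in some CD8 clusters of both libraries. The remaining wide gaps lay near Eef2kmt, where PT-Cy CD4 clusters 4 and 2 were at 26.7 and 25.4 CPM, and near 1700021F07Rik, where alloBMT CD4 cluster 0 held the highest lower bound at 10.7 CPM while alloBMT CD8 cluster 5 was at 18.9 and alloBMT CD4 cluster 3 at 11.7 CPM.

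**Figure D5:**
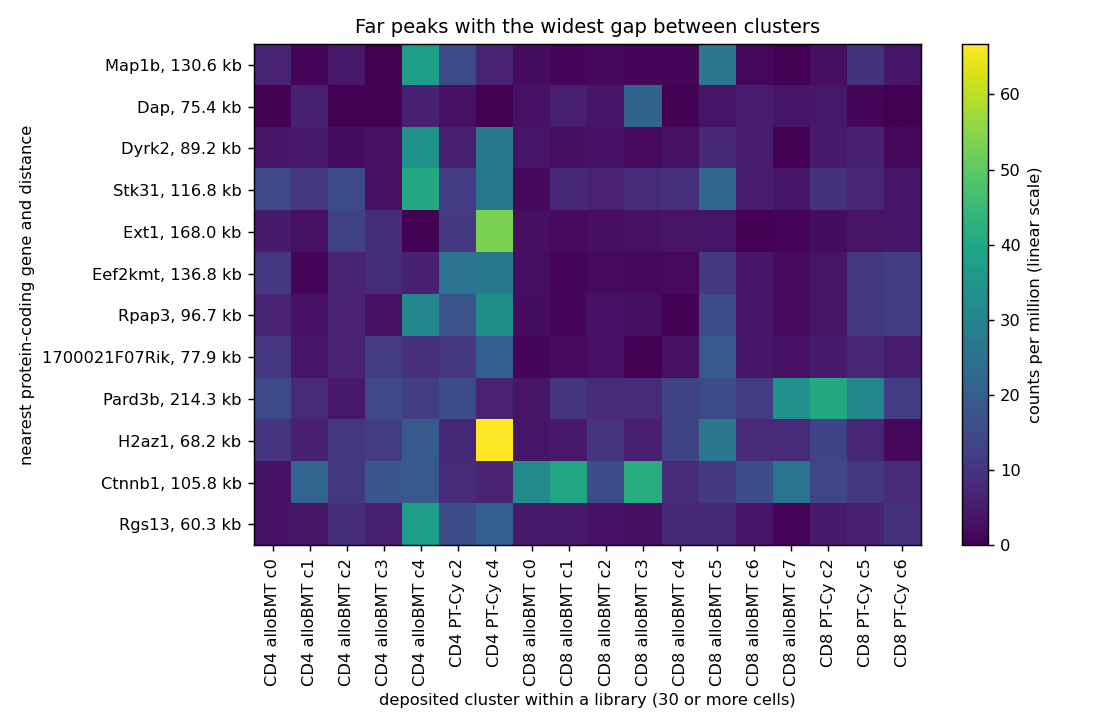
Level in CPM (colour, linear scale) of the 12 far peaks with the widest interval gap (rows, nearest gene and distance) in the 18 deposited clusters with at least 30 cells, each within a library (columns; c stands for cluster). Rows near Map1b, Dyrk2, Stk31 and Rgs13 are brightest in alloBMT CD4 cluster 4, and the row near Ctnnb1 in alloBMT CD8 cluster 3.

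RNA of the nearest gene moved only loosely with far peaks. Over 492 pairs of a far peak and its nearest gene, with at least 100 counts and 100 UMIs in the CD4 set, PT-Cy to alloBMT ratios had a Pearson correlation of 0.226 and a Spearman correlation of 0.248, and 286 pairs had the same sign. The pairs rest on 225 genes and on the same 2 libraries, so they are not independent. Peaks outside genes but within 50 kb had 0.268 over 1935 pairs. Of the 64 far peaks lower in PT-Cy CD4 cells, 26 nearest genes had 100 UMIs, and 18 of these were below 0 in RNA, as were 54.7% of all 225 nearest genes of the pairs. Of the 10 higher peaks, 5 had such a gene, and 4 of these were above 0.

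Transcripts that cover far peaks could be read for 14 of the 464 lncRNAs concerned, with at least 100 UMIs in CD4 cells. By RNA, 1 was 2-fold higher in PT-Cy and 1 lower, while among all 6285 genes with 100 UMIs 4.93% were higher and 2.88% lower. The higher one was Morrbid, a lncRNA known to hold down its neighbour Bcl2l11, with 456 UMIs in alloBMT and 434 in PT-Cy, a ratio of 1.19 (1.0 to 1.38). Its 29 far peaks summed to a ratio of -0.18 (-0.33 to -0.04), on the other side of 0. Bcl2l11 RNA had a ratio of -0.32 (-0.64 to -0.01). The lower one was Firre, an X-linked lncRNA of nuclear organization, with 97 and 12 UMIs, a ratio of -1.75 (-2.76 to -0.88), and its 21 far peaks were lower too, at -0.39 (-0.54 to -0.24). These 21 are among the 24 peaks of the Olfr1324 to Stk26 interval above, so both results rest largely on the same counts. Lncpint RNA had a ratio of -0.66 over 22 far peaks at 0.09, and Pvt1, the neighbour of Myc, -0.23 over 19 far peaks at -0.14. Of the 14 lncRNAs, 10 had RNA and far peak ratios on the same side of 0 and 4 did not. Firre and Pvt1 were among the 10, though the interval of the Pvt1 far peaks included 0 (-0.31 to 0.03), and Morrbid and Lncpint among the 4. Within the 10, Firre alone had both intervals clear of 0. The RNA ratio of AY036118, for example, was -0.005 (-0.05 to 0.04). The accessibility ratios of Lncpint (0.09), Xist (0.14) and BC002059 (0.15) fall below 0 with TMM or DESeq2 factors, so their sides depend on the scaling.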

How the data were processed

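Per the file headers and values, the deposited ATAC and RNA tables hold whole-number counts per peak or gene and cell, with no normalization, and the RNA table covers the CD4 set. The authors' deposited per-cell table gives the set, library, cluster, fraction of fragments in peaks and the ratio of TSS enrichment (median 5.24 to 5.44). The median fraction in peaks was 66.6% and 65.4% in alloBMT CD4 and CD8 cells, and 58.3% and 58.5% in PT-Cy CD4 and CD8 cells. It thus differed between the libraries that the PT-Cy to alloBMT ratios compare, and its part in those ratios was not tested. Of its 58 columns 52 were not used. The submitters' processing notes name Cell Ranger ARC 1.0.1, MACS2 and GRCh38, a human build. The peaks lie on mouse chromosomes, and distances were taken to 21900 protein-coding genes of RefSeq GRCm38.p6, predicted ones included. Peak positions are printed as deposited. The sources used here give neither the MACS2 version nor the cell filters or doublet treatment, and no doublet caller was run.

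Counts of all cells in a set, library or cluster were summed and divided by their total over all peaks. Ratios carry exact conditional binomial (Clopper-Pearson) 95% intervals, levels exact Poisson intervals and shares exact binomial intervals. A ratio counts as called past 2-fold with 100 counts in the cells compared. Peaks were named by rule: the 10 highest lower bounds and 10 lowest upper bounds of the PT-Cy ratio, 8 and 8 of the CD4 to CD8 ratio in alloBMT, 12 widest cluster gaps, 8 with the most counts, and up to 3 per gene list with the most counts, which are summarised by list. Intervals were the 8 with the most peaks, and 4 at each end of the summed ratio, ranked in the same way by interval bound. Other genes and peaks, including the start windows shown and the intervals marked as added, were picked after values were seen. The members and lists were chosen with earlier results of these data known. The levels at 1 set of marker genes of other blood cells are not reported here.

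The ratio script was tested on simulated data with known changes. Alternatives were edgeR 4.0.16 TMM and DESeq2 1.42.0 factors, which serve here for scaling only, other count and distance limits, the 5% of cells with the most counts left out, each cell counted once per peak, other cluster limits and equal weights of both sets. Software was R 4.3.3 and Python 3.11.15 with pandas 2.3.3, scipy 1.17.1, matplotlib 3.10.9 and numpy 2.4.6.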

Additional observations from a re-analysis of the deposited data

Results flagged for a closer look

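Ratios whose counting intervals lay on opposite sides of 0 in CD4 and CD8 cells are listed here. The difference between the sets was not tested, since each group is 1 library. Such ratios occurred in 11 of 846 far peaks with 100 counts in both sets, in 62 of 19113 other peaks and in 10 of 723 intervals. Among the named ones, the peak at chr9:118415438-118416923, 61.3 kb from Eomes, had a PT-Cy to alloBMT log2 ratio of -0.83 in CD4 and 0.69 in CD8 cells. The interval between LOC115486419 and Eomes had -0.67 and 0.30. The interval between Bcl2l11 and Spdye4c had -0.12 and 0.093, values close to 0 whose CD8 interval no longer clears 0 with TMM factors.

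The CD4 to CD8 ratio changed side between libraries at the peak over Rn18s-rs5, with 0.23 in alloBMT and -0.32 in PT-Cy. With each cell counted once the PT-Cy value was 0.11. That capped value also takes in the difference in counts per cell between the sets, so it cannot decide the side. Opposite sides occurred in 10 of 391 far peaks with 100 counts in both libraries. The share among other peaks was not counted, so this number cannot be read as a trait of far peaks.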

How the results depend on the processing

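Of 134 alternative values of the main results, 84 stayed within 1.5 times (shares of counts: within the counting interval) and 50 did not. Of 1120 values of named peaks and intervals 29 left their counting interval: 15 at the Rn18s-rs5 peak under several settings, 3 at the Axin2 and 3 at the Lncpint peak with each cell counted once, and 8 sums over intervals with TMM or DESeq2 factors. With at least 50 counts, PT-Cy-higher far peaks were 5.81% over all T cells, 4.64% in CD4 and 4.88% in CD8 cells, and CD4-higher ones 2.73% in alloBMT and 2.42% in PT-Cy. With at least 200 counts, PT-Cy-higher peaks were 1.03% over all T cells and 0.791% in CD8 cells, PT-Cy-lower peaks 2.87%, 4.82% (CD4) and 2.37% (CD8), CD4-higher peaks 0.498% (alloBMT) and 0% (PT-Cy), and CD8-higher peaks 1.41% and 0%. TMM factors gave 0.354% higher and 11.8% lower in CD4, 1.47% higher in CD8 and 0% CD4-higher in PT-Cy. DESeq2 factors gave 0.472%, 11.4%, 1.47% and 0%. With each cell counted once, 1.47% were higher in PT-Cy CD8 cells, 0% CD4-higher in PT-Cy and 6.95% had a cluster gap of 1. With alloBMT clusters alone 6.66% had that gap (all peaks 3.92%). In PT-Cy, CD4-higher peaks were 0.119% at 20 kb, 0% at 100 kb and 0% at 50 kb from every annotated gene, where CD8-higher peaks were 10.4%.

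In the order alloBMT CD4, alloBMT CD8, PT-Cy CD4 and PT-Cy CD8, far peaks held 7.18%, 7.18%, 6.88% and 7.28% of counts at 20 kb, 1.86%, 1.82%, 1.67% and 1.84% at 100 kb, 3.45%, 3.48%, 3.32% and 3.51% with each cell counted once, 0.400%, 0.406%, 0.391% and 0.414% at 50 kb from every annotated gene, and 3.27%, 3.27%, 3.17% and 3.35% without the Rn18s-rs5 peak, an alternative chosen after seeing the data. PT-Cy CD4 cells were lowest in each of these. The cause of these moves beyond the fewer peaks or counts used was not tested. No paired analysis was possible because each group is 1 library, and leaving out a replicate was not possible for the same reason.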

Other observations

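The 21 far peaks over antigen receptor segments, 11 of them on chromosome 12, summed to 138 CPM in alloBMT CD4, 185 in PT-Cy CD4, 135 in alloBMT CD8 and 182 in PT-Cy CD8 cells. The 8 far peaks between Runx1 and Setd4 were at 79.4 and 43.5 CPM in alloBMT and PT-Cy CD4 cells and at 67.3 and 71.2 CPM in CD8 cells. Far peaks beyond 500 kb from a protein-coding gene were few: of these 42, 21.4% had a cluster gap of 1 or more, against 9.11% at 50 to 100 kb, 13.2% at 100 to 200 kb and 10.4% at 200 to 500 kb.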
